A study of Mus musculus with 4 samples.

Results

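Transcript levels of 9 feedback inhibitors of mitogen-activated protein (MAP) kinase signalling were measured by RNA-sequencing in a mouse renal proximal tubular cell line. The 9 genes are the dual-specificity phosphatases Dusp1, Dusp4, Dusp5, Dusp6, Dusp10 and Dusp16, the Sprouty genes Spry2 and Spry4, and the Sprouty-related gene Spred1. They were chosen by symbol from the 22063 genes listed, and all 9 were found once and passed the filter on low counts, which left 11727 genes. The cells are TKPTS cells, called TKPT cells in the labels. The group Scrambled, named si-NC in the study, received a control siRNA and holds 2 libraries, replicates 2 and 3. The group Itgb6-siRNA was transiently transfected with siRNA against Itgb6, the beta subunit of integrin αvβ6, and holds 2 libraries, replicates 1 and 3. The labels give the genotype as WT for Scrambled and as Itgb6 knockdown for Itgb6-siRNA. All 4 libraries came from cells kept for 24 h in 1% O2 and then for 12 h in normal oxygen, so no normoxic cells enter the comparison. The totals were between 15435074 and 17220281 counts per library. The labels do not say that replicates came from separate cultures, so the p-values measure the spread between these libraries, which may be technical.

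The targeted gene was examined first. Itgb6 had 285 and 284 counts in the Scrambled libraries and 279 and 260 counts in the Itgb6-siRNA libraries, with a log2 fold change (Itgb6-siRNA over Scrambled, here and throughout) of -0.0051 (95% interval from -0.27 to 0.26, adjusted p = 0.991). Its mRNA was thus not lower by more than the spread between replicates in the libraries labelled Itgb6-siRNA, and the sign of the difference turned without Scrambled replicate 2 (0.038) or without Itgb6-siRNA replicate 3 (0.091). Each direction below is a difference between libraries of these labels, and whether the labels match the treatment was not tested. Levels are given as CPM, which are counts scaled to the library size after TMM normalization, or as FPKM, which are also scaled to transcript length. Of 20 markers of the proximal tubule and of epithelium, 14 passed the filter. Pax8, Cdh16, Epcam, Cdh1, Krt8, Krt18 and Havcr1 were present at between 51.7 and 609.9 FPKM in the group means, while the transporters Slc34a1, Slc5a2 and Slc22a6, which define the differentiated segment, were listed at 0 in all 4 libraries. The summed level of the 20 markers ran from 3183 to 3228 CPM in Scrambled and from 3056 to 3077 CPM in Itgb6-siRNA. The 10 macrophage and leukocyte markers summed to 141 and 151 CPM in Scrambled and to 137 and 132 CPM in Itgb6-siRNA, most of it from Cd68 (between 98.2 and 114 CPM), followed by Csf1r (between 22.2 and 27.5 CPM) and Cd14 (between 8.40 and 11.5 CPM), while the defining marker Ptprc was at or below 0.364 CPM. The 10 fibroblast markers summed to 3.19 and 3.59 CPM in Scrambled and to 6.01 and 3.28 CPM in Itgb6-siRNA. Itgb6-siRNA replicate 1 stood apart with 22 counts of Col1a1, 14 of Col3a1, 11 of Col1a2 and 11 of Lyz2, against 0 to 2 counts in the other libraries. Without that library, Dusp1 (log2 fold change -0.59) and Spry4 (0.74) still passed the adjusted threshold used below and Dusp10 (0.36) did not. The 10 endothelial markers summed to 104 and 102 CPM in Scrambled and to 99.9 and 110 CPM in Itgb6-siRNA, most of it from Flt1. Of the 3 endothelial markers tested, Plvap, with between 22 and 66 counts, was lower (log2 fold change -1.09). The other endothelial markers tested, Flt1 (0.069) and Cdh5 (-0.011), did not pass the threshold. Among the epithelial markers, Krt8 was lower (log2 fold change -0.20) and Havcr1 and Aqp1 were higher (0.19 and 0.59). The part of these differences in the results was not tested.

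MAP kinases carry growth factor and stress signals from the cell surface to the nucleus. The ERK branch is driven by receptor tyrosine kinases through RAS, RAF and MEK, and the JNK and p38 branches respond mainly to stress and cytokines. The dual-specificity phosphatases remove the activating phosphates from the threonine and tyrosine of the MAP kinase activation loop, whereas Sprouty and Spred proteins act further up, between the receptor and RAF. Many of these inhibitors are themselves transcribed in response to the kinases they restrain, so that their mRNA is part of a negative feedback loop. In the injured tubule, ERK, JNK and p38 activity accompanies dedifferentiation, proliferation and inflammation.

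The sequences before the transcription start are shown for the genes whose levels are compared most closely below. These genes are Dusp1 and Dusp5, whose CPM was lower in both Itgb6-siRNA libraries, Dusp10, which was higher, and Dusp6, which was level. In edgeR's test below, Dusp5 did not pass the adjusted threshold (adjusted p = 0.370). The lack of overlap that Dusp5 had was also seen in 49.2% of all genes tested. The sequences are the 250 bases before the RefSeq start in GRCm38.p6, at chr17:26508473-26508722 on the minus strand for Dusp1, chr19:53528895-53529144 on the plus strand for Dusp5, chr1:184034131-184034380 on the plus strand for Dusp10 and chr10:99262981-99263230 on the plus strand for Dusp6. Capitals mark matches on either strand to the cyclic AMP response element TGACGTCA (CRE), to its half-site TGACG and to the CArG box bound by serum response factor.
Dusp1: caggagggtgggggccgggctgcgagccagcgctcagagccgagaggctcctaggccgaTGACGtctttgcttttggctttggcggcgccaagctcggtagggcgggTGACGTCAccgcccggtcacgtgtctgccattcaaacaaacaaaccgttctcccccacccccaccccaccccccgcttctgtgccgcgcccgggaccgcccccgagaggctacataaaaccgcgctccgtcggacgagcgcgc
Dusp5: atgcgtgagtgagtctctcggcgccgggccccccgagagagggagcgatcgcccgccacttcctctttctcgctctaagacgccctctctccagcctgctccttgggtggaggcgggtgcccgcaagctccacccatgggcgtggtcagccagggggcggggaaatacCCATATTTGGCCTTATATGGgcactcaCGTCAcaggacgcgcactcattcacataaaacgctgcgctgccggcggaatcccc
Dusp10: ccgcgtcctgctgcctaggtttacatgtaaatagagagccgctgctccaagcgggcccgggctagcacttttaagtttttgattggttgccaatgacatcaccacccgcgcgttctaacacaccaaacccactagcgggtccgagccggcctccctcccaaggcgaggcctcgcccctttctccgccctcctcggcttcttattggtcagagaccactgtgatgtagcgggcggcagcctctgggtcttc
Dusp6: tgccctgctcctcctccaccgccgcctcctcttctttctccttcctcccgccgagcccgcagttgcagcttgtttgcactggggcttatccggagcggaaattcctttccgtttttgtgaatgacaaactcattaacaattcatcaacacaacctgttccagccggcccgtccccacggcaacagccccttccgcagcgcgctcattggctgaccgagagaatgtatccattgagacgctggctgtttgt

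In the window of 300 bases around the start (250 before and 50 after), which RefSeq gave for 7 of the 9 genes (not Dusp4 and Spry4), 8 motifs were searched on both strands. For Spred1 and Dusp16 the first bases after the RefSeq start were not found in a GENCODE vM21 transcript. Their windows may thus not sit at the start in that annotation. Dusp1 was the 1 gene of the 7 with a full CRE, 143 bases before the start, and it had a further half-site 191 bases before the start. A full CRE also counts as 2 half-site matches. The full CRE was found in 1.8% of all 32544 distinct promoter windows and the half-site in 20.9%, the latter in Dusp1, Dusp5 and Dusp16 among the 7. Dusp5 was the 1 gene with CArG boxes and had 2 that abut, 82 and 72 bases before the start, against 1.64% of all windows with at least 1. The GC box GGGCGG was found in 5 of the 7 genes and in 35.9% of all windows. The E-box CACGTG was found in Dusp1 and in 7.17% of windows. CCGGAA, a longer form of the ETS core GGAA, was found in Spry2 and in 4876 of the 32544 windows. The shorter GGAA was not searched. The AP-1 site TGANTCA (7.79% of windows) and the TATA box TATAAA (13.6%) matched in 0 of the 7. Dusp6 had a match to 0 of the 8 motifs as spelled here, though its sequence above holds the shorter GGAA. A match describes letters only and no binding was measured.

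The 9 genes did not move as a block. Dusp1, which acts in the nucleus on p38, JNK and ERK, fell 1.49-fold in the libraries labelled Itgb6-siRNA, while Dusp10, which prefers JNK and p38, rose 1.31-fold and Spry4, an inhibitor of receptor signalling, rose 1.69-fold. Dusp6 and Dusp4, the 2 members with the most transcript per length, had log2 fold changes of 0.011 and 0.042. At an adjusted p under 0.05, 1 of the 9 genes was lower and 2 were higher, and among all genes tested 2.52% were lower and 2.11% higher. The rule of the study, an unadjusted p under 0.05 with a fold change over 1.2, called the same numbers of the 9 genes (1 lower and 2 higher), beside 5.2% lower and 4.37% higher of all genes tested. The groups did not overlap in CPM for 6 of the 9 genes (2 lower, 4 higher), which was also so for 49.2% of all genes tested, so the lack of overlap alone says little with 2 libraries a group. The median log2 fold change was 0.18 over the 9 genes and 0.00017 over all genes tested. With 1 library left out, the median of the 9 genes was between 0.035 and 0.12, the lowest without Itgb6-siRNA replicate 3.

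**Figure D1:**
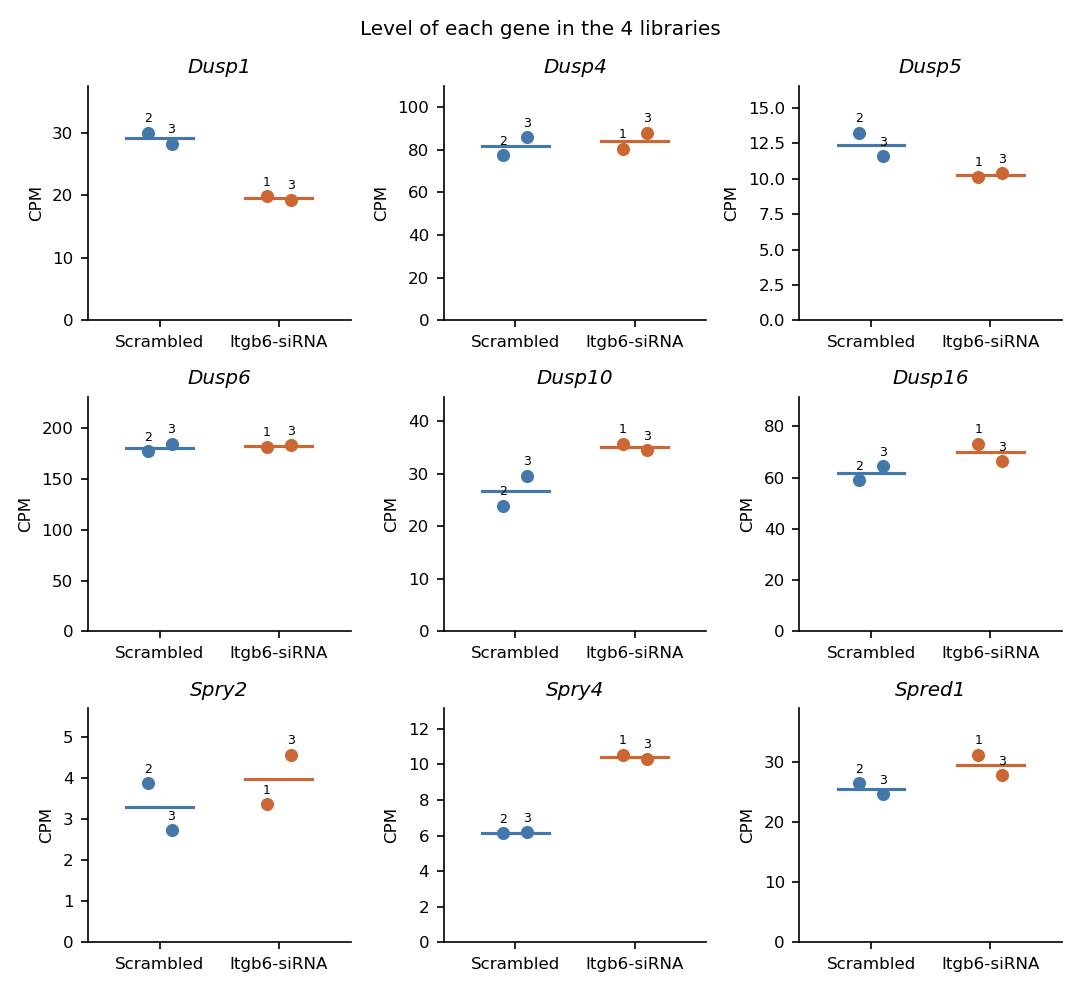
Level of each of the 9 genes in CPM (TMM-normalized, y axis from 0) in the 2 Scrambled (blue) and 2 Itgb6-siRNA (orange) libraries; each point is 1 library with its replicate number, and the line is the mean of 2. Dusp1 lies lower and Dusp10 and Spry4 lie higher in both Itgb6-siRNA libraries, whereas the points of Dusp4, Dusp6 and Spry2 overlap between groups.

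Among the phosphatases that act broadly or on ERK in the nucleus, Dusp1 changed and Dusp4 and Dusp5 did not pass the test. Dusp1 (ENSMUSG00000024190), an immediate early gene that encodes MKP-1, had 489 and 488 counts in Scrambled replicates 2 and 3 and 307 and 318 counts in Itgb6-siRNA replicates 1 and 3. This was 29.1 ± 1.22 CPM (SD, n = 2) in Scrambled and 19.6 ± 0.367 CPM (SD, n = 2) in Itgb6-siRNA. Both Itgb6-siRNA libraries were below both Scrambled libraries, and the gap between the groups was several times the spread within either. On the log2 scale Dusp1 differed by -0.57 (standard error 0.11, 95% interval from -0.80 to -0.34, adjusted p = 0.00203 by the quasi-likelihood test of edgeR, Benjamini-Hochberg), and 105 of the genes tested had a smaller p. Without Scrambled replicate 2 the value was -0.53, so that its size did not rest on that library. That fit leaves 1 library in Scrambled. Dusp1 did not pass the adjusted threshold in it, and neither did Dusp10 or Spry4. In GENCODE vM21 the gene spans chr17:26505590-26562128 in GRCm38 and exons of it overlap Ergic1 on the opposite strand, whose reads cannot be told apart in libraries made without strand information. Ergic1, a protein of the early secretory pathway, did not pass the test (log2 fold change -0.07, adjusted p = 0.630). It had more counts than Dusp1, with 1952 and 1888 in Scrambled and 1759 and 1712 in Itgb6-siRNA. The part of Ergic1 reads in the Dusp1 counts was not tested.

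Dusp5 (ENSMUSG00000034765), a nuclear phosphatase specific for ERK, had 216 and 200 counts in Scrambled and 157 and 171 counts in Itgb6-siRNA, or 13.2 and 11.6 CPM against 10.1 and 10.4 CPM. The groups did not overlap, but the log2 fold change of -0.27 had a standard error of 0.16 and an interval from -0.60 to 0.050, which includes 0 (adjusted p = 0.370). Exons of Dusp5 overlap AC137853.2 on the opposite strand, which was not analysed here. Dusp4 (ENSMUSG00000031530), a growth factor-induced phosphatase of the nucleus, had 1265 and 1486 counts in Scrambled and 1246 and 1448 counts in Itgb6-siRNA. This was 77.6 and 86.0 CPM against 80.5 and 87.95 CPM, with overlapping groups, and the interval of the log2 fold change ran from -0.11 to 0.20 (adjusted p = 0.817).

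Dusp6 (ENSMUSG00000019960) encodes the cytoplasmic phosphatase that is specific for ERK, and its mRNA is widely used as a readout of ERK signalling. It had 2895 and 3191 counts in Scrambled and 2815 and 3017 counts in Itgb6-siRNA, which was 178 and 185 CPM against 182 and 183 CPM. The Itgb6-siRNA libraries lay between the Scrambled libraries. On the log2 scale the groups differed by 0.011 (standard error 0.058, adjusted p = 0.948), and the 95% interval from -0.11 to 0.13 is the narrowest of the 9 genes. The difference had no stable sign, with -0.0035 when only library size was used for scaling, -0.00069 with the trends on GC content and length removed and -0.018 without Scrambled replicate 2.

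Of the phosphatases that prefer JNK and p38, Dusp10 passed the test and Dusp16 did not. Dusp10 (ENSMUSG00000039384), which encodes MKP-5, had 390 and 511 counts in Scrambled and 552 and 567 counts in Itgb6-siRNA. This was 26.8 ± 4.01 CPM (SD, n = 2) against 35.1 ± 0.865 CPM (SD, n = 2), and the Scrambled libraries were farther from each other (23.9 and 29.6 CPM) than the Itgb6-siRNA libraries (35.7 and 34.4 CPM). Dusp10 was higher by 0.39 on the log2 scale (standard error 0.11, interval from 0.17 to 0.61, adjusted p = 0.0344 in edgeR). Without Scrambled replicate 2, its library with the fewest Dusp10 counts, the value fell to 0.24 (adjusted p = 0.578), and without Itgb6-siRNA replicate 1 it was 0.36 (adjusted p = 0.0541). With the trends on GC content and length removed it was 0.37 (adjusted p = 0.0888). Dusp16 (ENSMUSG00000030203), which encodes the JNK phosphatase MKP-7, had 59.0 and 64.5 CPM in Scrambled and 73.2 and 66.5 CPM in Itgb6-siRNA. Its groups did not overlap, and its log2 fold change of 0.18 had an interval from 0.014 to 0.34 and an adjusted p of 0.224, so that it did not pass the adjusted threshold, and its fold of 1.13 was also under the fold change threshold of the study.

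Of the inhibitors that act on the receptor side, Spry4 passed the test and had the largest absolute log2 fold change of the 9 genes in the fit of all 4 libraries. Spry4 (ENSMUSG00000024427), a membrane-associated inhibitor of RAS and RAF activation, had 100 and 107 counts in Scrambled and 163 and 170 counts in Itgb6-siRNA. The level was 6.16 ± 0.0448 CPM (SD, n = 2) in Scrambled and 10.4 ± 0.145 CPM (SD, n = 2) in Itgb6-siRNA, and the 2 libraries of each group were nearly equal. Spry4 was higher by 0.76 on the log2 scale (standard error 0.18, interval from 0.38 to 1.13, adjusted p = 0.0117 in edgeR). Its absolute log2 fold change was above that of 97.6% of the genes tested. With 1 library left out the value stayed between 0.74 and 0.77, but the adjusted p was 0.210 without Scrambled replicate 2 and 0.0826 without Scrambled replicate 3.

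Spry2 (ENSMUSG00000022114), which binds the adaptor Grb2 and the ubiquitin ligase Cbl, had the fewest counts of the 9 genes. It had 63 and 47 counts in Scrambled and 52 and 75 counts in Itgb6-siRNA, or 3.86 and 2.72 CPM against 3.36 and 4.56 CPM, and the groups overlapped. The interval of its log2 fold change of 0.27 ran from -0.30 to 0.85 (adjusted p = 0.668), so that a difference of the size seen in Spry4 lies within it and could not be resolved at this depth. Spred1 (ENSMUSG00000027351), which brings the RAS inactivator neurofibromin to the membrane, had 26.4 and 24.6 CPM in Scrambled and 31.1 and 27.8 CPM in Itgb6-siRNA. The groups did not overlap, and its log2 fold change of 0.21 (interval from -0.018 to 0.43) had an adjusted p of 0.317.

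**Figure D2:**
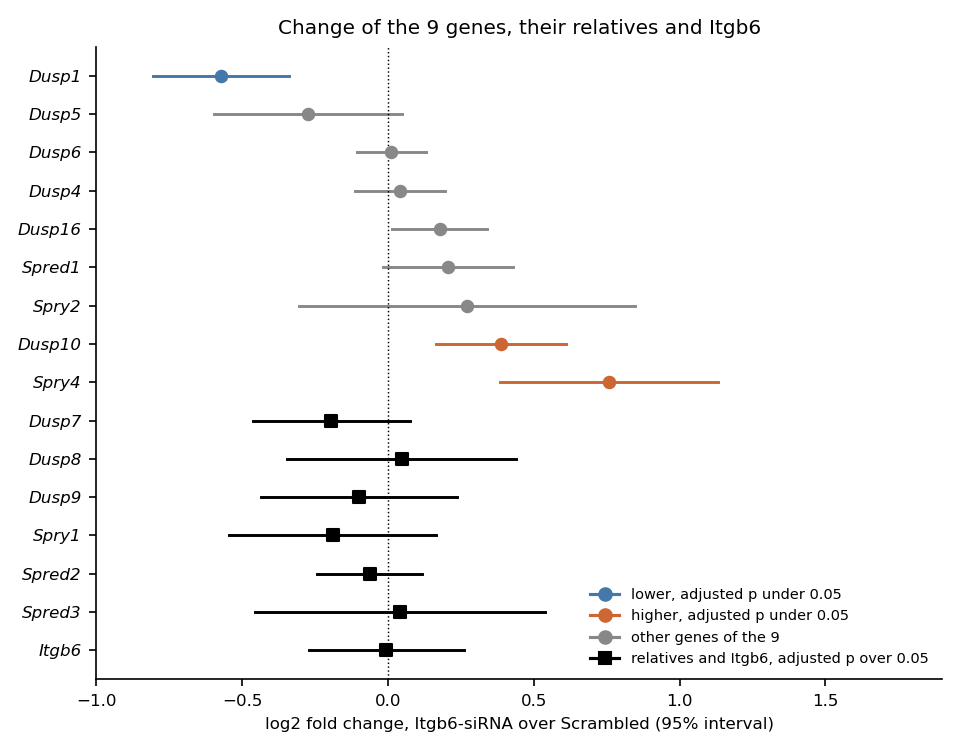
Log2 fold change of Itgb6-siRNA over Scrambled with its 95% interval (x axis) for the 9 genes (circles), 6 relatives and Itgb6 (squares), from edgeR's quasi-likelihood fit of all genes. The intervals of Dusp1 (from -0.80 to -0.34), Dusp10 (from 0.17 to 0.61) and Spry4 (from 0.38 to 1.13) belong to genes past the adjusted threshold, and the interval of Dusp6 is the narrowest.

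Levels between genes were compared per length, as the authors' FPKM. In Scrambled the order was Dusp6 (65.1 ± 1.68 FPKM, SD, n = 2), Dusp4 (29.99 ± 2.12 FPKM), Dusp1 (14.7 ± 0.653 FPKM), Dusp16 (12.4 ± 1.03 FPKM), Dusp10 (9.62 ± 1.42 FPKM), Dusp5 (5.04 ± 0.491 FPKM), Spred1 (4.68 ± 0.279 FPKM), Spry2 (1.59 ± 0.392 FPKM) and Spry4 (1.30 ± 0.00636 FPKM). Neighbours in this order had separate ranges over the 2 libraries, except Dusp5 and Spred1, whose ranges overlapped. The ranges of Spry2 and Spry4 nearly met, at 1.308 and 1.307 FPKM in Scrambled replicate 3, so their order there is not resolved. In Itgb6-siRNA the order was Dusp6 (64.9 ± 0.417 FPKM), Dusp4 (30.6 ± 1.55 FPKM), Dusp16 (13.7 ± 1.21 FPKM), Dusp10 (12.5 ± 0.455 FPKM), Dusp1 (9.78 ± 0.298 FPKM), Spred1 (5.13 ± 0.169 FPKM), Dusp5 (4.13 ± 0.0205 FPKM), Spry4 (2.18 ± 0.0559 FPKM) and Spry2 (1.88 ± 0.381 FPKM). Here the ranges of Spry4 and Spry2 overlapped. Dusp1 thus stood above Dusp16 and Dusp10 in Scrambled and below both in Itgb6-siRNA. As CPM per kilobase of the longest transcript, Dusp1 had 12.96 and 12.22 in the Scrambled libraries and Dusp16 11.56 and 12.64, so that Dusp1 was above Dusp16 in replicate 2 and below it in replicate 3. Dusp6 had a higher mean FPKM than 94.0% of all genes listed and Spry2 than 56.5%.

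The 6 phosphatases summed to 133 and 140 FPKM in the Scrambled libraries and to 136 and 135 FPKM in the Itgb6-siRNA libraries. Dusp6 made up between 47.2% and 48.0% of this sum in all 4 libraries. The share of Dusp1 was 11.4% and 10.1% in Scrambled and 7.34% and 7.09% in Itgb6-siRNA. The share of Dusp10 and Dusp16 together was 15.2% and 16.9% in Scrambled and 20.1% and 18.5% in Itgb6-siRNA. The ratio of Dusp1 to Dusp10 in FPKM was 1.76 and 1.34 in Scrambled and 0.780 and 0.787 in Itgb6-siRNA, so that the more abundant of the pair was Dusp1 in the former and Dusp10 in the latter. An exact permutation test over 2 against 2 libraries cannot go below p = 0.333 (two-sided), so these shares and ratios are given with no test. In bulk RNA, a lower level in each cell and fewer cells that carry the transcript cannot be told apart.

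**Figure D3:**
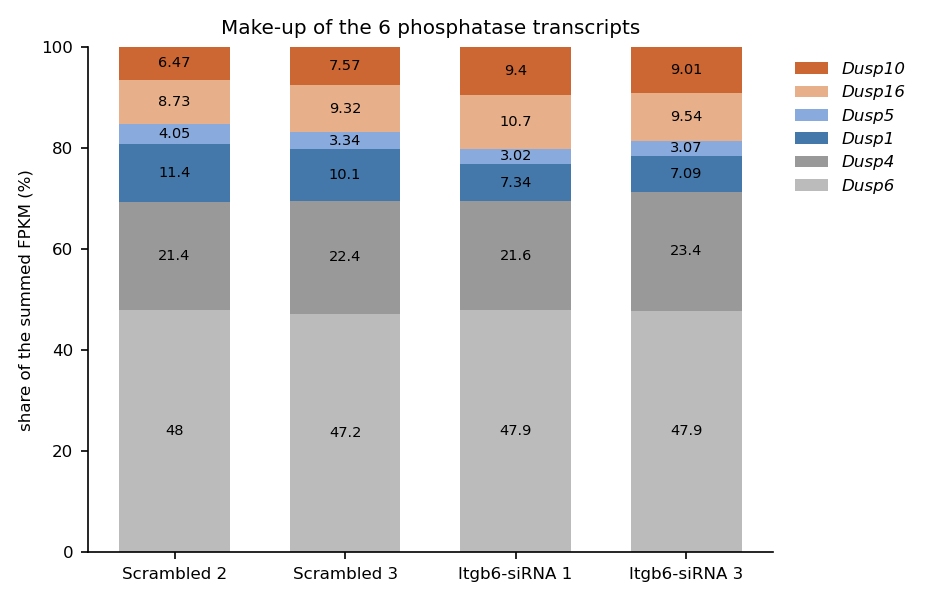
Share of each of the 6 phosphatases in their summed FPKM (y axis, in percent) in each of the 4 libraries. The share of Dusp6 stays between 47.2% and 48.0%, the share of Dusp1 is 11.4% and 10.1% in Scrambled against 7.34% and 7.09% in Itgb6-siRNA, and the shares of Dusp10 and Dusp16 are larger in both Itgb6-siRNA libraries.

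The 6 close relatives of the 9 genes that could be tested did not pass the threshold. Of 4 other MAP kinase phosphatases, Dusp7, Dusp8 and Dusp9 were tested with log2 fold changes of -0.19, 0.047 and -0.098, and Dusp2, an immediate early phosphatase of leukocytes, had between 3 and 10 counts and was not tested. Of 4 other Sprouty and Spred genes, Spry3 was not listed, and Spry1, Spred2 and Spred3 had log2 fold changes of -0.19, -0.063 and 0.041. The adjusted p of these 6 genes lay between 0.461 and 0.957. The signs of Dusp7, Dusp8, Dusp9, Spred2 and Spred3 turned with at least 1 library left out. Spry1 had 176 and 162 counts in Scrambled and 146 and 136 counts in Itgb6-siRNA, and its groups overlapped in CPM, with 10.8 and 9.38 CPM against 9.43 and 8.26 CPM. Among 9 tested atypical dual-specificity phosphatases, 1 was called: Styx, which encodes a catalytically dead relative that binds ERK, had 14.3 and 17.5 CPM in Scrambled and 23.7 and 20.7 CPM in Itgb6-siRNA (log2 fold change 0.48, adjusted p = 0.0297). That call was lost without Scrambled replicate 2 (0.34, adjusted p = 0.514), without Scrambled replicate 3 (0.63, adjusted p = 0.0618), without Itgb6-siRNA replicate 1 (0.37, adjusted p = 0.147) and with the trends on GC content and length removed (0.31, adjusted p = 0.225).

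Few of the receptors and kinases that these inhibitors act on passed the adjusted threshold, beside 2.52% lower and 2.11% higher of all genes tested. Of 13 receptor tyrosine kinases tested, 0 did so in edgeR's test, and the log2 fold changes ran from -0.55 to 0.75 with a median of -0.080. By the rule of the study 2 were lower, Fgfr3 (-0.55, adjusted p = 0.120) and Insr (-0.30, adjusted p = 0.101), a fibroblast growth factor receptor and the insulin receptor. Egfr, the epidermal growth factor receptor, had 291 and 303 CPM in Scrambled and 303 and 308 CPM in Itgb6-siRNA (log2 fold change 0.040), and Met, the receptor of hepatocyte growth factor, had -0.080, with adjusted p-values of 0.745 and 0.649. Of 25 genes of the RAS-RAF-MEK-ERK cascade, 1 was lower and 0 were higher, with a negative value in 17, a positive value in 8 and a median of -0.059. The lower gene was Ptpn11, whose phosphatase SHP2 carries receptor signals to RAS, with 103 and 91.1 CPM in Scrambled and 71.5 and 74.5 CPM in Itgb6-siRNA (log2 fold change -0.41, adjusted p = 0.000964). Without Scrambled replicate 2 it had -0.32 (adjusted p = 0.232). Mapk3, which encodes the kinase ERK1, differed by -0.12 on the log2 scale (adjusted p = 0.266). It had -0.18 without Itgb6-siRNA replicate 1 and -0.052 without Itgb6-siRNA replicate 3. With the trends on GC content and length removed, Mapk3 had -0.034 and the sign turned for Egfr (-0.033).

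Of 14 tested negative regulators of RAS and ERK outside the 9 genes, 0 passed the adjusted threshold in edgeR's test and 1 was lower by the rule of the study, with a median of -0.027. Of 11 genes of the JNK cascade, 1 was higher: Map3k12, a kinase upstream of JNK, had 8.40 and 9.32 CPM in Scrambled and 12.3 and 13.6 CPM in Itgb6-siRNA (log2 fold change 0.55, adjusted p = 0.0474). Its adjusted p was above 0.05 in 3 of the 4 fits that left out a library, at 0.431 without Scrambled replicate 2, 0.111 without Scrambled replicate 3 and 0.214 without Itgb6-siRNA replicate 3. It was also above 0.05 with RLE factors (0.0522), with library size only (0.0654) and with the trends on GC content and length removed (0.0844). Of 13 genes of the p38 cascade, 0 passed the adjusted threshold and 1 was lower by the rule of the study. The p38 genes had a median of -0.20, with a negative value in 11 and a positive value in 2. Over all genes tested the log2 fold change fell with GC content, as given below. The p38 median was not computed with that trend removed.

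**Figure D4:**
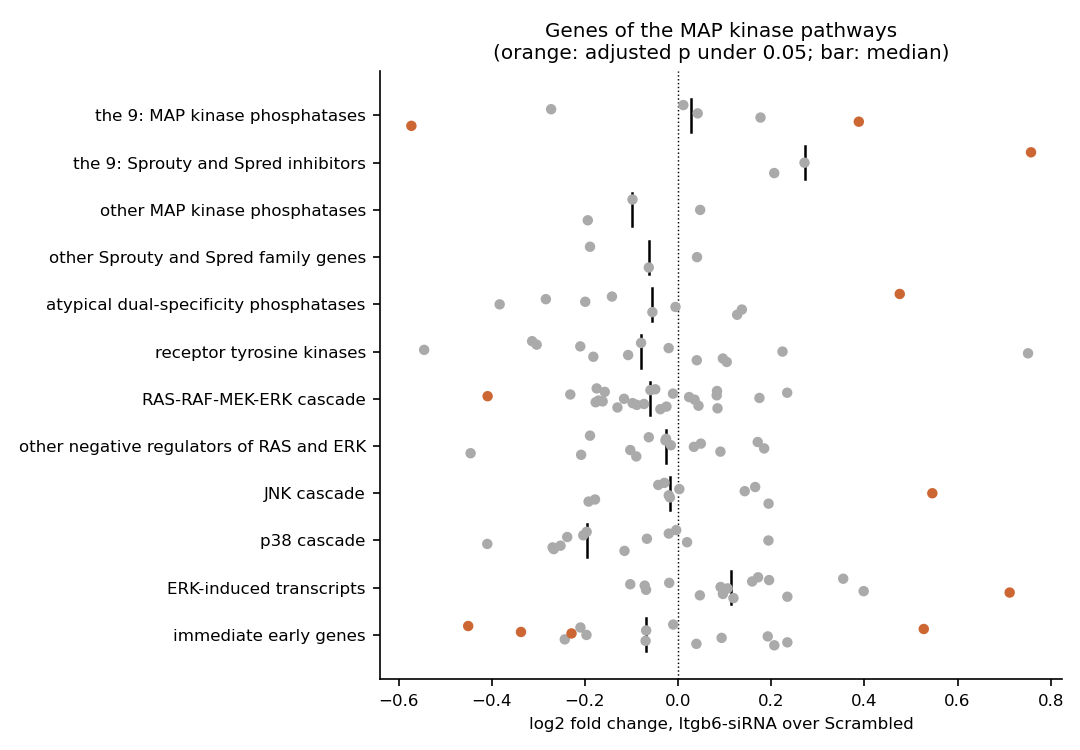
Log2 fold change of Itgb6-siRNA over Scrambled (x axis) of each tested gene in 12 lists (y axis), with 1 point per gene, orange where the adjusted p is under 0.05, and a black bar at the median of the list. The medians of the kinase lists lie between -0.20 for p38 and -0.018 for JNK, and Dusp1 and Spry4 are the outermost orange points on the left and on the right.

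Transcripts that ERK is known to induce gave a mixed picture. Of 16 genes of that kind, all tested, 1 was higher and 0 were lower, 12 had a positive and 4 a negative log2 fold change, and the median was 0.11. The higher gene was Epha4, an ephrin receptor, with 107 and 118 counts in Scrambled and 160 and 191 counts in Itgb6-siRNA (log2 fold change 0.71, adjusted p = 0.0161). Its adjusted p rose to 0.257 without Scrambled replicate 2, 0.0890 without Scrambled replicate 3 and 0.109 without Itgb6-siRNA replicate 3, and to 0.0503 with the trends on GC content and length removed. Among 15 tested immediate early genes, the class to which Dusp1 belongs, 3 were lower and 1 was higher. By the rule of the study 2 of the 15 were lower and 1 was higher. Of all genes tested, 2.52% were lower and 2.11% higher at an adjusted p under 0.05. Srf, the serum response factor, had 557 and 557 counts in Scrambled and 394 and 381 counts in Itgb6-siRNA (log2 fold change -0.45, adjusted p = 0.0103). Its adjusted p was 0.322 without Scrambled replicate 2, 0.0814 without Scrambled replicate 3, 0.0756 without Itgb6-siRNA replicate 3 and 0.209 with the trends on GC content and length removed, where the value was -0.26. Jund and Junb, which encode subunits of the AP-1 transcription factor, were lower (log2 fold changes -0.34 and -0.23, adjusted p = 0.00266 and 0.0161). Klf6, a zinc finger factor, was higher (log2 fold change 0.53, adjusted p = 0.000666). With the trends on GC content and length removed Jund had -0.13 (adjusted p = 0.329) and Junb -0.080 (adjusted p = 0.511). Without Scrambled replicate 2, the adjusted p was 0.264 for Jund, 0.417 for Junb and 0.255 for Klf6, whose log2 fold change fell to 0.33. DESeq2 did not call Klf6 (adjusted p = 0.133). Without Scrambled replicate 3 it was 0.0793 for Jund and 0.0997 for Junb, and without Itgb6-siRNA replicate 3 it was 0.0786 for Jund, whose log2 fold change was then -0.20.

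The authors' annotation places the 9 genes in shared terms. All 9 are among the 45 genes annotated with negative regulation of MAPK cascade. Of the 32 tested genes of this term, 2 were lower (Dusp1 and Dag1) and 2 were higher (Dusp10 and Spry4), with a median log2 fold change of -0.021. The KEGG term MAPK signaling pathway holds the 6 phosphatases and 0 of the Sprouty and Spred genes. Of its 216 tested genes, 10 were lower, Dusp1 among them, and 6 higher, Dusp10 among them, at an adjusted p under 0.05. Together these were 7.41%, beside 2.52% lower and 2.11% higher of all genes tested. The median of the KEGG term was -0.042. These terms were looked up after the values of the 9 genes were known.

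The profile over the 4 libraries was compared between genes as the root mean square distance of log2 CPM, each gene centred on its own mean. The gene nearest to Dusp1 was Xylt2, a xylosyltransferase of proteoglycan synthesis, at a distance of 0.011. The gene nearest to Spry4 was Hmga2, a chromatin protein of embryonic and regenerating tissue, at 0.015 (log2 fold change 0.74, adjusted p = 4.62e-06), and it was the 1 tested gene within a distance of 0.05. The nearest genes to the others were Chchd3 for Dusp4, Top3b for Dusp5, Kif22 for Dusp6, Tpmt for Dusp10, Abitram for Dusp16, Lamc3 for Spry2 and Fbxo28 for Spred1, at distances between 0.0028 and 0.028. Within 0.05 there were 14 genes for Dusp1, 47 for Dusp10 and 1637 for Dusp6, so that likeness over 4 libraries singles out few genes for Spry4 and many for Dusp6. Among the 9 genes, the pairs that were each other's nearest were Dusp4 and Dusp6 (0.054), Dusp16 and Spred1 (0.082), and Dusp1 and Dusp5 (0.16). All of these distances were above 0.05.

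The 9 genes lie on 9 different chromosomes. In GENCODE vM21 (GRCm38), beside Dusp1, they span chr1:184013302-184075636 (Dusp10), chr2:117121374-117182279 (Spred1), chr6:134715468-134792625 (Dusp16), chr8:34807297-34819894 (Dusp4), chr10:99263231-99267489 (Dusp6), chr14:105891947-105896819 (Spry2), chr18:38586247-38601415 (Spry4) and chr19:53529109-53542431 (Dusp5), and counts were taken per gene.

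The transcripts of the 9 genes differ in length and base composition, and over all genes tested the log2 fold change fell with GC content (Spearman rank correlation -0.364 over genes, a description, since genes do not vary independently). The longest transcript of Dusp1 is 54.0% GC and that of Dusp5 is 56.7%, against 48.4% for Dusp10, 51.2% for Spry4 and 41.2% for Spred1. With the trends on GC content and length removed, Dusp1 had -0.53 (adjusted p = 0.0152) and Spry4 0.79 (adjusted p = 0.0225), both still past the threshold. Spred1 fell to 0.12 and Dusp5 moved to -0.19, and Dusp4 rose to 0.12, none with an adjusted p under 0.05.

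**Figure D5:**
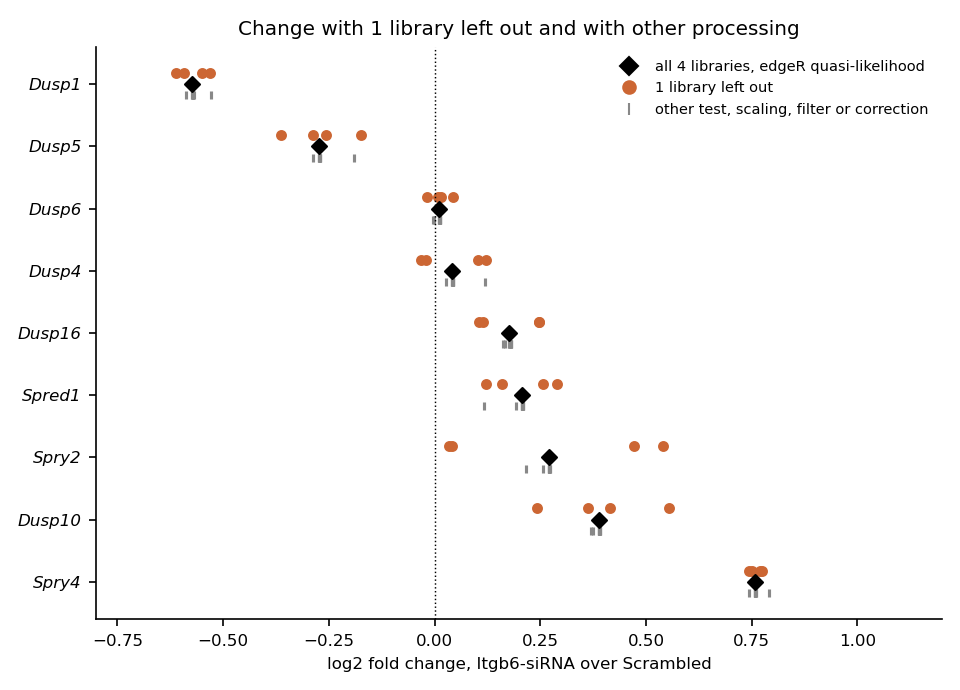
Log2 fold change of each of the 9 genes (x axis) from all 4 libraries (black diamonds), from the 4 fits that each leave out 1 library (orange points) and from other tests, scalings, filters or corrections (grey ticks). Dusp1 stays between -0.61 and -0.53 and Spry4 between 0.74 and 0.79, whereas Spry2 ranges from 0.035 to 0.54 and Dusp10 from 0.24 to 0.55.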

How the data were processed

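RNA-sequencing data of 4 libraries of hypoxic TKPTS cells were used. Per the study's methods, the authors sequenced poly(A) RNA in pairs without strand information. They also clustered the samples first and refined the set taken further, in a way the methods do not detail. Expected counts, without normalization, were deposited for each gene. Between 1447 and 1500 genes per library had a fractional value, but the 9 genes had whole values throughout. They also deposited FPKM values, which were used to compare levels between genes and in no test. The aligner, the counter and the genome build are not given in the sources used here.

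The expected counts were rounded. The filter on low counts was filterByExpr (minimum count 10, minimum total count 15). Libraries were scaled by TMM, and groups were compared in edgeR (version 4.0.16, run in R version 4.3.3) by its quasi-likelihood test. P-values were adjusted by Benjamini-Hochberg over all 11727 genes tested, and the model held no covariate. Standard errors come from the log2 fold change and its F statistic. The common biological coefficient of variation was 0.0551. The test was run first on simulated counts. DESeq2 1.42.0 was an alternative, with the others given in the closing section. In fits without 1 library, the lone library of a group was assumed to vary like the other group. The replicates differed by more than sampling noise (chi-square per gene of 3.15 in Scrambled and 4.00 in Itgb6-siRNA). Positions and transcript properties are from GENCODE vM21 (GRCm38), which held 99.6% of the identifiers, and promoters from RefSeq (GRCm38.p6). A pseudocount of 0.5 CPM was used for the distances between profiles.

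The genes named are the 9 genes, Itgb6, their relatives, Egfr, Met and Mapk3, the genes of each pathway list with an adjusted p under 0.05, and the gene with the nearest profile to each of the 9. A further gene under this rule is not reported here. Ergic1, Dag1, Fgfr3, Insr and the cell type markers given by name were added after their values were seen. The 9 genes and the lists were chosen with earlier results of these data known.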

Additional observations from a re-analysis of the deposited data

How the results depend on the processing

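No paired analysis was possible because the groups share only replicate number 3. With RLE factors, with either other filter on low counts, and with the likelihood ratio or exact test of edgeR, 1 of the 9 genes was lower and 2 were higher, as with the quasi-likelihood test. Scaling by library size only, and removing the trends on GC content and length, each left 1 higher gene (Spry4). DESeq2 gave an adjusted p for 5 of the 9 genes and called 0 lower and 0 higher. Its unadjusted p was under 0.05 for 1 lower and 2 higher genes, and those of Dusp1 and Spry4, which had no adjusted p, were 0.000145 and 0.00238. Without its independent filtering, an alternative chosen after seeing the data, DESeq2 called 1 lower (Dusp1, adjusted p = 0.0116) and 0 higher genes, with an adjusted p of 0.0872 for Spry4 and 0.168 for Dusp10. In that setting it also called neither Styx, Map3k12, Epha4, Srf nor Klf6 (adjusted p between 0.0655 and 0.241). With independent filtering DESeq2 called Srf (adjusted p = 0.0350) but not Klf6 (adjusted p = 0.133). The cause was not tested. Leaving out 1 library gave 0 to 1 lower genes and 0 to 2 higher genes, with 0 of either without Scrambled replicate 2, where 1 lower and 1 higher gene had an unadjusted p under 0.05. The median log2 fold change of the 9 genes ranged from 0.035 to 0.12 over these fits, the lowest without Itgb6-siRNA replicate 3.

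With 1 library left out, the log2 fold change ranged from -0.10 to 0.091 for Itgb6, from -0.031 to 0.12 for Dusp4, from -0.018 to 0.044 for Dusp6, from -0.39 to 0.034 for Dusp7, from -0.089 to 0.20 for Dusp8, from -0.19 to 0.0099 for Dusp9, from -0.22 to 0.079 for Spred2 and from -0.045 to 0.13 for Spred3. The sign was also turned for Dusp6 by library size only (-0.0035) and by removing the trends on GC content and length (-0.00069), and by the latter for Dusp9 (0.011) and Egfr (-0.033). The adjusted p of these genes was never under 0.21 in the settings run. With CPM divided by the length of the longest transcript, all 9 genes kept their place in the order of mean levels in both groups. Spry2, with 47 to 75 counts, had the widest interval of the 9 genes.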
